A study of Homo sapiens with 8 samples.

Results

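The genes described here are 35 human genes of the NF-kB system: the transcription factor subunits, the inhibitors that hold them back, feedback and survival genes, chemokines, cytokines and further targets. They were taken by name, as the rows whose gene name is on the list, and all 35 were found among the 48162 genes of the deposited tables with 0 repeated names. Values come from 8 RNA sequencing libraries of KYSE70 and KYSE450, human cell lines derived from esophageal squamous cell carcinoma, at passages 5 to 10. There are 4 groups of 2 libraries, 1 library per line in each: knockdown of the long noncoding RNA NMR by shRNA, its shRNA control, NMR overexpression, and its control. The shRNA was delivered by lentivirus produced in the packaging line HEK 293T, and overexpression used the plasmid pcDNA3.1 introduced by lipofection. The knockdown and its control are called the lentiviral arm, and the overexpression and its control the plasmid arm. In every list of values KYSE70 stands before KYSE450. No label says that the libraries were separate cultures, so each p-value reflects the spread among these 8 libraries alone, which may be technical. The level of NMR itself was not analysed here, so neither manipulation was checked on its target.

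NF-kB is a family of dimeric transcription factors kept in the cytoplasm by IkB proteins. When cytokine receptors, pattern receptors or other stress signals activate the IkB kinase, the IkB proteins are degraded and the dimers enter the nucleus, where they bind kappaB elements. Their targets include inflammatory chemokines and cytokines, survival factors, and the genes of their own inhibitors and subunits, so that the pathway feeds back on itself. In squamous epithelium the pathway is known for inducing neutrophil chemokines, interleukins of the IL-1 family and anti-apoptotic genes.

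The reads recovered from the FPKM values (reads scaled to gene length and library total) ran from 26402532 to 37938678 per library. Squamous markers were present, with TP63 at 140.2 to 654 FPKM and KRT5 at 4156 to 19246 FPKM. Some were low in a single line, and KRT17 stayed under 1 FPKM in the 4 KYSE70 libraries. ITGB4 was at 0.331 to 1.58 FPKM in KYSE450 and at 117 to 145 FPKM in KYSE70. KRT14 was at 3.20 to 38.3 FPKM in KYSE70 and at 371 to 1211 FPKM in KYSE450. The leukocyte markers PTPRC, CD3E, CD14, CD68 and LYZ were each under 1 FPKM in all 8 libraries, and CSF1R was at 0.172 to 1.41 FPKM. The fibroblast list summed to 27.1 to 52.3 FPKM, mostly COL1A1, with COL1A2, DCN and PDGFRB under 1 FPKM. COL3A1 was at 0.617 to 21.9 FPKM, highest in the KYSE70 knockdown library, and LUM was at most 1.09 FPKM. The endothelial genes CDH5 and KDR were under 1 FPKM as well, while VWF was at 0.717 to 4.24 FPKM. The KYSE70 knockdown library stood apart: mitochondrially encoded genes took 8.63% of the FPKM total there, and 3.84% to 5.75% elsewhere. In bulk RNA, fewer cells of a type and less RNA per cell cannot be told apart.

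The promoters below are shown because several of the chemokines, feedback genes and subunits that differed most between libraries carry kappaB sequences near their start sites. CXCL5 and IL6 are shown beside them because their windows hold the consensus although both genes were at or near 0 FPKM in every library. Windows run from 250 bases before to 50 bases after each start, come from RefSeq on GRCh38.p14, and were found for 29 of the 35 members, in 43 windows. The kappaB consensus of 10 bases was searched on both strands, and matches on opposite strands can overlap and merge into a longer run. Capitals mark consensus matches on either strand, and each sequence is written 5′ to 3′ along the gene's own strand. For IL8, which had no consensus match, they mark the 9-base core GGAATTTCC, a motif chosen after the windows were seen and contained in many consensus matches. A match is a description of the letters and not a binding site.

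The whole 300-base windows of TNFAIP3 (chr6:137867009-137867308, plus strand), BIRC3 (chr11:102317234-102317533, plus strand) and NFKB2 (chr10:102394328-102394627, plus strand) held their matches as follows.
TNFAIP3: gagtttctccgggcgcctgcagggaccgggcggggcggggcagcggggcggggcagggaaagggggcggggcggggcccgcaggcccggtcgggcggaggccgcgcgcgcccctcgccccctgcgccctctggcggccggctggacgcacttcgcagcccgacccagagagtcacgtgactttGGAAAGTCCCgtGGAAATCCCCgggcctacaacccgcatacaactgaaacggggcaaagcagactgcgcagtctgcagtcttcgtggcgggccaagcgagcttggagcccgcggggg
BIRC3: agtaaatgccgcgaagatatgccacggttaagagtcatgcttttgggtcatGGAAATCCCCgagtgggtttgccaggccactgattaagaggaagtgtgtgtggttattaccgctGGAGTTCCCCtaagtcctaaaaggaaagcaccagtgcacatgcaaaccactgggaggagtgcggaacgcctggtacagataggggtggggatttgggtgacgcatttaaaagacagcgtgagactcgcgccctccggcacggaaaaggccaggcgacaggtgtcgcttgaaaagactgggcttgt
NFKB2: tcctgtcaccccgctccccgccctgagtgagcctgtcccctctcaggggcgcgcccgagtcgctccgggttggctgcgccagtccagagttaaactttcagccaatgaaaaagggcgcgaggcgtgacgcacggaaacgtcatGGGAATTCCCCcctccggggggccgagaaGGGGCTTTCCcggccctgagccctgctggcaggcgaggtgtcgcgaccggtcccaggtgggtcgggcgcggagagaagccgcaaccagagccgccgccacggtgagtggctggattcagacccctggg

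For an inhibitor and a nuclear IkB gene, NFKBIA (chr14:35404780-35404879, minus strand) and NFKBIZ (chr3:101827740-101827839, plus strand), the 100 bases around the match are shown.
NFKBIA: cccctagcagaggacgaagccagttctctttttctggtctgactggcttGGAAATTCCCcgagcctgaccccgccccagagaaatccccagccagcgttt
NFKBIZ: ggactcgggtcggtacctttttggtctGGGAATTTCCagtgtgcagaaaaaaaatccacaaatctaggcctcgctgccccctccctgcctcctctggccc

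The chemokines of chromosome 4 are shown together to compare their matches: CXCL1 (chr4:73869263-73869362, plus strand), CXCL2 (chr4:74099226-74099325, minus strand), CXCL3 (chr4:74038720-74038819, minus strand), CXCL5 (chr4:73998708-73998807, minus strand) and IL8 (chr4:73740439-73740538, plus strand). CCL20 (chr2:227813712-227813811, plus strand) and IL6 (chr7:22727070-22727169, plus strand) follow.
CXCL1: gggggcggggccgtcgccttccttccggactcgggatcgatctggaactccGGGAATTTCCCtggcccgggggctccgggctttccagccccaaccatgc
CXCL2: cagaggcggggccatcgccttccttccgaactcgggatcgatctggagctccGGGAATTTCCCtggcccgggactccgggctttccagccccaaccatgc
CXCL3: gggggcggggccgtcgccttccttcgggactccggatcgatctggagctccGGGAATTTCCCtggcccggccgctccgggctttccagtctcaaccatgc
CXCL5: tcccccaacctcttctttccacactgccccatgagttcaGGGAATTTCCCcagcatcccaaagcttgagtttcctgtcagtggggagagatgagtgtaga
IL8: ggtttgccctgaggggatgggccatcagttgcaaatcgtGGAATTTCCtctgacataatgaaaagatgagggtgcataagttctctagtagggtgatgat
CCL20: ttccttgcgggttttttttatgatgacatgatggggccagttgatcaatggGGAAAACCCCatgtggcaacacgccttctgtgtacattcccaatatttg
IL6: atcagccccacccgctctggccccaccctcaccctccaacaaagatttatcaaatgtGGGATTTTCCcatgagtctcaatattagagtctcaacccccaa

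CXCL1, CXCL2 and CXCL3 held the same 11 capital letters, beginning 79, 78 and 79 bases before the start, and CXCL5 held them 91 bases before it. The core in IL8 began 91 bases before the start. TNFAIP3 carried its 2 matches 67 and 55 bases before the start, and BIRC3 carried its 2 matches 199 and 135 bases before it. The consensus occurred in 19 of the 43 member windows (44.2%), against 11.3% of all 35116 windows of the same length in the table. Counted by gene, 17 of the 29 members had it (58.6%), against 13.3% of 27305 gene symbols. The core occurred in 11 member windows and in 0.461% of all windows. As it was chosen after the member windows were seen, these values are a description and cannot test an excess. The windows of CXCL1, CXCL2 and CXCL3 were 78.4% to 89.2% identical over the parts that aligned, so their matches are not separate. Windows of RELA, TNFAIP2, BIRC2, TRAF1, SOD2, IL1A, IL1B, PTGS2, CSF2 and TNF had neither motif, which says only that these letters are not in these windows. RELB, NFKBIE, IER3, CCL2, LIF and CSF3 are named only.

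Of the 35 members, 28 had a mean of at least 1 FPKM over the 8 libraries and entered the tests, which ran over all 14311 such genes with limma on log2(FPKM + 1) and Benjamini-Hochberg adjustment at a threshold of 0.05. The other 7 were CXCL2, CXCL5, CCL2, IL6, CSF2, CSF3 and TNF. The lentiviral arm stood above the plasmid arm in most of these genes: 8 of the 28 passed the test, all higher, against 3.0% of all genes called higher, 1.01% called lower and 4.02% called either way. With the libraries scaled by median ratios, 7 of the 28 were called, all higher, against 1.87% of all genes called higher and 1.35% called lower. The size of the arm difference also depended on the line, and 15 of the 28 passed the test of that difference, against 6.37% of all genes. Knockdown against its control gave 0 calls among the members and 0.00% among all genes. Overexpression against its control also gave 0 calls and 0.00%. KYSE70 against KYSE450 gave 7 calls among the 28, 3 higher and 4 lower in KYSE70, against 50.3% of all genes (24.7% higher and 25.6% lower). Of the 28, TNFAIP2, TRAF1, CXCL3, IL8, CCL20, ICAM1 and PTGS2 averaged under 1 FPKM in 1 arm and passed the filter through the other arm. Likewise TRAF1, IL8, CCL20, IL1A, IL1B and ICAM1 averaged under 1 FPKM in 1 line. A gene that passes in this way had to differ between those groups, so its values in such a comparison are a description, given below without a test. Of the 21 members at 1 FPKM or more in both arms 7 were called between the arms, and of the 22 at that level in both lines 4 were called between the lines. Of the 19 at that level in both arms and both lines, 10 were called for the difference of the arms between the lines.

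**Figure D1:**
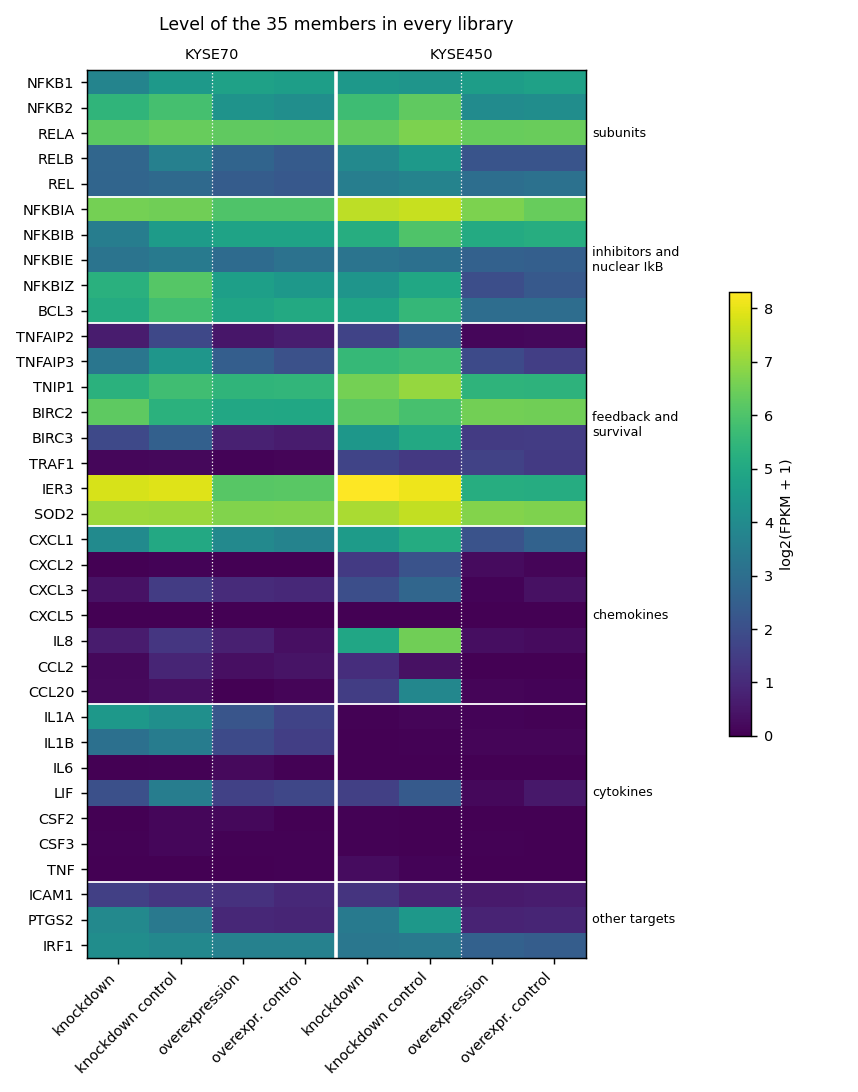
Level of the 35 members as log2(FPKM + 1), 1 row per gene grouped by role and 1 column per library, with the 4 KYSE70 libraries left of the 4 KYSE450 libraries. IL8 reached 29.03 and 91.0 FPKM in the KYSE450 lentiviral libraries and stayed under 2 FPKM in the other 6, while IL1A and IL1B were above 1 FPKM only in KYSE70.

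Among the 5 subunits, NFKB2, the precursor subunit of the non-canonical branch, differed most between the arms. It stood at 42.5 and 52.2 FPKM with knockdown, 56.6 and 76.5 FPKM with the knockdown control, 18.3 and 15.1 FPKM with overexpression, and 16.2 and 15.8 FPKM with the overexpression control. Every lentiviral library lay above every plasmid library in both lines. NFKB2 was higher in the lentiviral arm by 1.71 on the log2 scale (SE 0.15, limma adjusted p = 0.0187). RELB, the activating partner of the NFKB2 product, had 5.67 and 14.2 FPKM with knockdown, 11.4 and 21.4 FPKM with the knockdown control, 5.46 and 3.502 FPKM with overexpression, and 4.29 and 3.46 FPKM with the overexpression control. Its arms were separate in both lines, narrowly so in KYSE70, where knockdown and overexpression lay close together. The arm difference of RELB was 1.34 (SE 0.30), just outside the threshold (limma adjusted p = 0.0567). It came to 0.64 in KYSE70 and 2.04 in KYSE450, and the difference between the lines passed the test (-1.40, SE 0.25, limma adjusted p = 0.0285).

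RELA, the main activating subunit of the canonical branch, was at 73.2 to 102 FPKM in all 8 libraries, and its arms overlapped (0.08, SE 0.11). REL, the activating subunit best known from lymphocytes, was lower, at 3.89 to 12.2 FPKM, with an arm difference of 0.51 (SE 0.14, limma adjusted p = 0.0866). NFKB1, the precursor subunit of the canonical branch, was the only tested member whose lentiviral libraries lay below both plasmid libraries in each line, where 10.6% of all genes did. It had 12.3 and 20.6 FPKM with knockdown, 21.8 and 19.4 FPKM with the knockdown control, 26.0 and 23.6 FPKM with overexpression, and 24.2 and 26.3 FPKM with the overexpression control. The difference of NFKB1 did not pass the test (-0.44, SE 0.17, limma adjusted p = 0.161).

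The inhibitors and nuclear IkB genes divided in the same comparison. NFKBIA encodes the classical IkB and is a feedback target of the pathway. It stood at 94.6 and 180.2 FPKM with knockdown, 90.4 and 196 FPKM with the knockdown control, 63.5 and 100.3 FPKM with overexpression, and 63.9 and 82.3 FPKM with the overexpression control. The arms did not overlap within either line, and NFKBIA was higher in the lentiviral arm by 0.79 (SE 0.15, limma adjusted p = 0.0430). NFKBIZ, a nuclear IkB protein that works as a co-activator at a subset of targets, was at 37.6 and 19.1 FPKM with knockdown, 68.9 and 30.2 FPKM with the knockdown control, 24.9 and 3.01 FPKM with overexpression, and 20.4 and 3.96 FPKM with the overexpression control. It was higher in the lentiviral arm by 1.82 (SE 0.29, limma adjusted p = 0.0345), and more so in KYSE450 (2.49) than in KYSE70 (1.14), a difference that passed the test (-1.35, SE 0.26, limma adjusted p = 0.0350).

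BCL3, a nuclear IkB protein that binds dimers of the precursor-derived subunits, followed that pattern of lines. It had 33.4 and 28.1 FPKM with knockdown, 54.2 and 45.8 FPKM with the knockdown control, 28.2 and 6.88 FPKM with overexpression, and 32.3 and 6.76 FPKM with the overexpression control. In KYSE70 the knockdown and the overexpression control were nearly level, while in KYSE450 the arms were far apart. Over both lines the arm difference of BCL3 was 1.36 and did not pass the test (SE 0.35, limma adjusted p = 0.0713). It came to 0.48 in KYSE70 and 2.24 in KYSE450, and the lines differed by -1.75 (SE 0.20, limma adjusted p = 0.0118). NFKBIE, another cytoplasmic IkB, ranged from 4.68 to 9.57 FPKM with an arm difference of 0.44 (SE 0.16, limma adjusted p = 0.134). NFKBIB, a cytoplasmic IkB, ran in opposite directions in the lines. It had 10.4 and 35.2 FPKM with knockdown, 22.9 and 64.0 FPKM with the knockdown control, 27.5 and 33.0 FPKM with overexpression, and 27.2 and 35.5 FPKM with the overexpression control. The arm difference of NFKBIB was -0.78 in KYSE70 and 0.46 in KYSE450 (difference -1.24, SE 0.20, limma adjusted p = 0.0233), and exons of NFKBIB overlap those of the antisense gene SIRT2, so reads of the pair cannot be told apart without a strand setting.

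**Figure D2:**
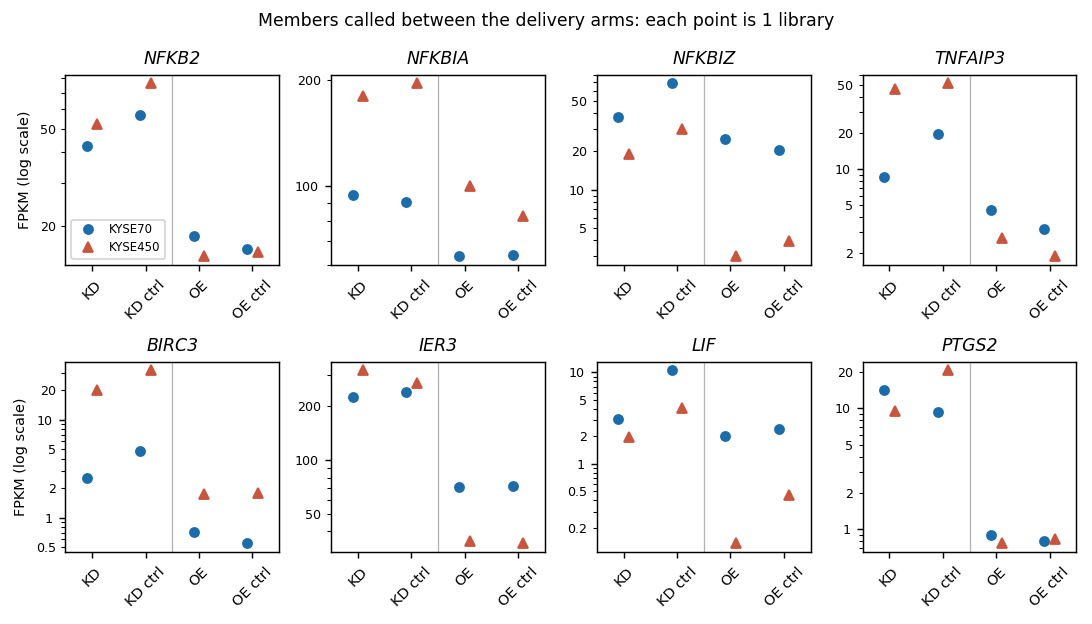
FPKM on a log scale in each library for the 8 members called between the arms; columns are knockdown (KD), knockdown control (KD ctrl), overexpression (OE) and overexpression control (OE ctrl), circles are KYSE70 and triangles KYSE450. In each panel the lentiviral libraries left of the grey line lie above the plasmid libraries of the same line, as for NFKB2 at 42.5 to 76.5 FPKM against 15.1 to 18.3 FPKM; PTGS2 passed the filter through the lentiviral arm alone.

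The feedback and survival genes TNFAIP3, BIRC3 and IER3 were called between the arms. TNFAIP3, a ubiquitin-editing enzyme that shuts off signalling upstream of the IkB kinase, was at 8.68 and 46.0 FPKM with knockdown, 19.6 and 51.7 FPKM with the knockdown control, 4.61 and 2.66 FPKM with overexpression, and 3.19 and 1.90 FPKM with the overexpression control. It was higher in the lentiviral arm by 2.74 (SE 0.49, limma adjusted p = 0.0392). The KYSE450 pair of lentiviral libraries lay highest, and the arm difference was 1.54 in KYSE70 and 3.94 in KYSE450 (difference -2.39, SE 0.33, limma adjusted p = 0.0159). BIRC3, an inhibitor-of-apoptosis ubiquitin ligase of the tumor necrosis factor receptor complex, had 2.54 and 19.98 FPKM with knockdown, 4.79 and 31.7 FPKM with the knockdown control, 0.707 and 1.74 FPKM with overexpression, and 0.546 and 1.79 FPKM with the overexpression control. It was higher in the lentiviral arm by 2.36 (SE 0.36, limma adjusted p = 0.0321), with 1.48 in KYSE70 and 3.24 in KYSE450 (difference -1.76, SE 0.23, limma adjusted p = 0.0146).

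IER3, an early response gene that modulates survival, was among the most abundant members. It stood at 225 and 317 FPKM with knockdown, 239 and 271 FPKM with the knockdown control, 70.6 and 35.6 FPKM with overexpression, and 71.6 and 34.3 FPKM with the overexpression control. It was higher in the lentiviral arm by 2.36 (SE 0.28, limma adjusted p = 0.0220), again less in KYSE70 (1.69) than in KYSE450 (3.03), with a difference of -1.34 (SE 0.21, limma adjusted p = 0.0216). TNIP1, a ubiquitin-binding partner of the TNFAIP3 protein, had 38.8 and 94.0 FPKM with knockdown, 53.7 and 126 FPKM with the knockdown control, 42.7 and 41.7 FPKM with overexpression, and 43.2 and 40.9 FPKM with the overexpression control. Its arm difference of 0.73 did not pass the test (SE 0.27, limma adjusted p = 0.137). The arms of TNIP1 overlapped in KYSE70 and were separate in KYSE450 (difference between the lines -1.29, SE 0.19, limma adjusted p = 0.0186).

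BIRC2, the sister ligase of BIRC3 and its neighbour on chromosome 11, went the other way across the lines. It had 75.7 and 73.2 FPKM with knockdown, 38.7 and 58.6 FPKM with the knockdown control, 30.4 and 92.5 FPKM with overexpression, and 29.9 and 90.0 FPKM with the overexpression control. Its arm difference was 0.83 in KYSE70 and -0.47 in KYSE450 (difference 1.30, SE 0.25, limma adjusted p = 0.0359). The BIRC2 and BIRC3 transcripts were 79.0% identical over the part that aligned, so some reads may be shared. TNFAIP2, a cytokine-inducible gene, had 0.562 and 2.21 FPKM with knockdown, 2.47 and 4.83 FPKM with the knockdown control, 0.409 and 0.110 FPKM with overexpression, and 0.595 and 0.119 FPKM with the overexpression control. In KYSE450 these were 100 and 284 reads in the lentiviral libraries, against 5 reads in each plasmid library, and the arm difference in KYSE70 minus that in KYSE450 was -1.32. SOD2, the mitochondrial superoxide dismutase, was at 103 to 185 FPKM with an arm difference of 0.49 (SE 0.13, limma adjusted p = 0.0762). TRAF1, a receptor adaptor, was at 1.63 to 2.25 FPKM in KYSE450 and at most 0.126 FPKM in KYSE70, with an arm difference of 0.04.

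**Figure D3:**
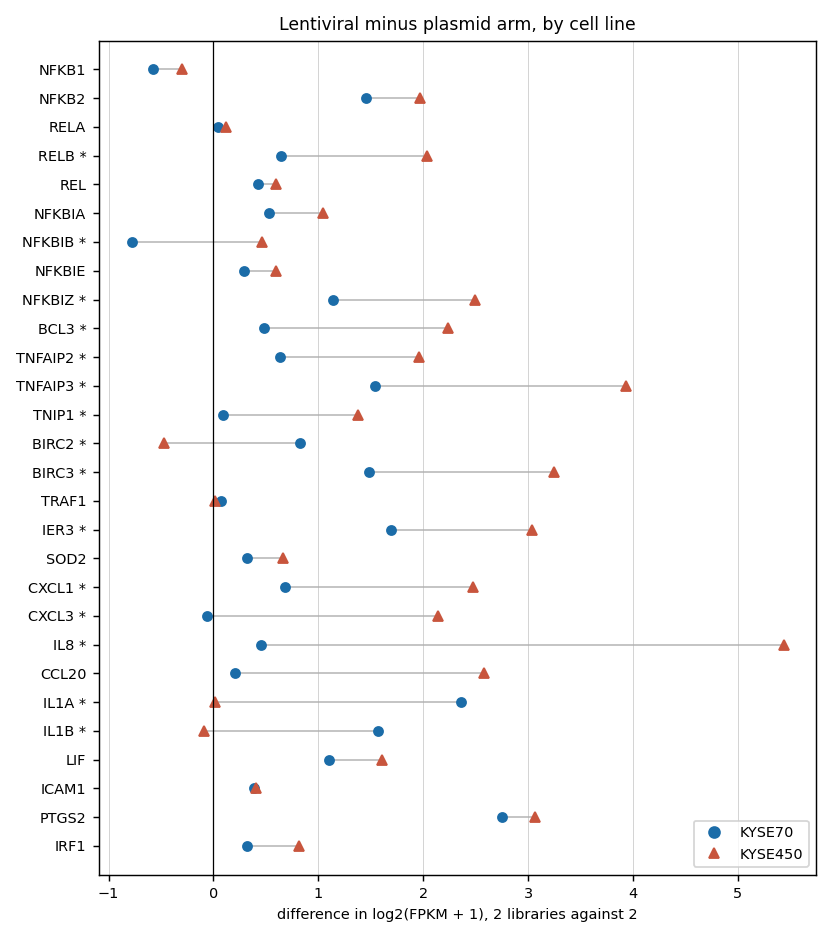
Difference in mean log2(FPKM + 1) between the 2 lentiviral and the 2 plasmid libraries of a line, with circles for KYSE70 and triangles for KYSE450; an asterisk marks the 15 members whose 2 differences passed the limma test, of which TNFAIP2, CXCL3, IL8, IL1A and IL1B passed the filter through 1 arm or 1 line alone. For 12 of the 15 the KYSE450 difference is the larger, up to 5.44 for IL8, and for BIRC2, IL1A and IL1B the KYSE70 difference is the larger.

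Of the 4 tested chemokines, IL8, CXCL3 and CCL20 passed the filter through the lentiviral arm, and only CXCL1 is given with a test of the arms. IL8, the neutrophil chemokine named CXCL8 in current nomenclature, had 0.567 and 29.03 FPKM with knockdown, 1.51 and 91.0 FPKM with the knockdown control, 0.666 and 0.239 FPKM with overexpression, and 0.254 and 0.184 FPKM with the overexpression control. In reads these were 15 and 850 with knockdown, 40 and 3462 with the knockdown control, 20 and 7 with overexpression, and 8 and 5 with the overexpression control. The 2 KYSE450 lentiviral libraries stood far above the other 6, and in KYSE70 the arms overlapped. The arm difference came to 0.46 in KYSE70 and 5.44 in KYSE450.

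CXCL1, a neutrophil chemokine whose promoter match is shown above, had 14.9 and 22.7 FPKM with knockdown, 31.3 and 33.9 FPKM with the knockdown control, 14.2 and 3.39 FPKM with overexpression, and 12.2 and 5.12 FPKM with the overexpression control. In KYSE70 only the control stood well above the plasmid libraries, and in KYSE450 both lentiviral libraries did. Over both lines the arm difference of CXCL1 was 1.58 and did not pass the test (SE 0.38, limma adjusted p = 0.0620). It came to 0.68 in KYSE70 and 2.47 in KYSE450, and the lines differed by -1.79 (SE 0.30, limma adjusted p = 0.0255). CXCL3, its close relative, had 0.329 and 3.01 FPKM with knockdown, 1.76 and 5.63 FPKM with the knockdown control, 1.03 and 0.0662 FPKM with overexpression, and 0.953 and 0.286 FPKM with the overexpression control. The KYSE70 knockdown library of CXCL3 lay below both plasmid libraries, while both KYSE450 lentiviral libraries lay above them. The transcripts of CXCL1 and CXCL2 were 88.6% identical, those of CXCL1 and CXCL3 73.3% and those of CXCL2 and CXCL3 73.8%, so the split of reads among them is uncertain.

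CCL20, a chemokine that attracts cells carrying CCR6, had 0.152 and 1.88 FPKM with knockdown, 0.253 and 13.3 FPKM with the knockdown control, 0 and 0.0916 FPKM with overexpression, and 0.0852 and 0.0495 FPKM with the overexpression control. A single library, the KYSE450 knockdown control with 377 reads, held most of its signal. CXCL2, which was not tested, had 1.65 FPKM with knockdown and 3.37 FPKM with its control in KYSE450, and at most 0.174 FPKM in the other 6 libraries. CXCL5 was listed at 0 in all 8 libraries. CCL2, a monocyte chemokine, was at most 1.11 FPKM.

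IL1A and IL1B were expressed in KYSE70 and near 0 in KYSE450, so both passed the filter through KYSE70 alone. IL1A, an alarmin released by damaged epithelium, had 20.7 and 0.0322 FPKM with knockdown, 16.6 and 0.0743 FPKM with the knockdown control, 3.56 and 0.0483 FPKM with overexpression, and 2.18 and 0.0347 FPKM with the overexpression control. The KYSE450 values are 2 to 6 reads, and in KYSE70 the arms were separate. The arm difference was 2.36 in KYSE70 and 0.02 in KYSE450. IL1B, the secreted inflammatory cytokine, had 7.45 and 0 FPKM with knockdown, 10.3 and 0.0298 FPKM with the knockdown control, 2.68 and 0.0774 FPKM with overexpression, and 1.94 and 0.0836 FPKM with the overexpression control. The arms of IL1B were separate in KYSE70, and at most 2 IL1B reads were seen in any KYSE450 library.

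LIF, a cytokine of the IL-6 family, had 3.10 and 1.99 FPKM with knockdown, 10.5 and 4.13 FPKM with the knockdown control, 2.02 and 0.135 FPKM with overexpression, and 2.40 and 0.453 FPKM with the overexpression control. Its arms did not overlap within either line, and LIF was higher in the lentiviral arm by 1.36 (SE 0.20, limma adjusted p = 0.0309). IL6, CSF2, CSF3 and TNF, which encode the cytokine IL-6, the colony-stimulating factors for granulocytes and macrophages, and tumor necrosis factor, were each at most 0.224 FPKM in every library. At most 11 reads of any of these 4 genes were seen in a library, so differences were not detectable at this depth.

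PTGS2, the inducible cyclooxygenase of prostaglandin synthesis, averaged under 1 FPKM in the plasmid arm and passed the filter through the lentiviral arm. It stood at 14.1 and 9.57 FPKM with knockdown, 9.34 and 20.6 FPKM with the knockdown control, 0.893 and 0.766 FPKM with overexpression, and 0.810 and 0.827 FPKM with the overexpression control. All 4 lentiviral libraries lay above all 4 plasmid libraries, with an arm difference of 2.76 in KYSE70 and 3.07 in KYSE450. ICAM1, the leukocyte adhesion receptor, was at 0.519 to 1.96 FPKM, with an arm difference of 0.39. IRF1, an interferon-pathway transcription factor, was at 4.50 to 15.7 FPKM, with an arm difference of 0.57 (SE 0.16, limma adjusted p = 0.0889).

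Over the 28 tested members the median arm difference was 1.11, with 26 above 0, beside a median of 0.073 over all 14311 genes. The 21 members at 1 FPKM or more in both arms had a median of 0.79 and accounted for 7 of the 8 calls. In each line both lentiviral libraries exceeded both plasmid libraries for 17 of the 28, where 20.0% of all genes did so. Among the 17 are CCL20, ICAM1 and PTGS2, which passed the filter through the lentiviral arm alone, so their place there is a description. By line, the median arm difference of the members was 0.51 in KYSE70 (all genes 0.13) and 1.49 in KYSE450 (all genes 0.011). Of the 15 calls on the difference between the lines, the 10 members at 1 FPKM or more in both arms and both lines divided into 1 called higher, BIRC2, against 4.84% of all genes, and 9 called lower, against 1.54% of all genes. Scaling the libraries by median ratios shifted the median of all genes in it by -0.10, with 3.49% of all genes called higher and 2.12% called lower, and the number of members called stayed at 15. Delivery, vector and anything else that differed between the arms cannot be told apart. The arm calls were sensitive to single libraries: 0 members were called without the KYSE70 knockdown, the KYSE450 knockdown control or the KYSE450 overexpression control library, 1 without the KYSE70 knockdown control, and 3 without the KYSE70 overexpression control, against 0.00%, 0.0489% and 0.0629% of all genes in the same fits. No member was called between the arms when genes of any level were kept, when cell line was left out of the model, or when only the controls were compared. The calls on the difference between the lines fell to 8 without either overexpression library and to 9 without either overexpression control, against 2.31% to 3.23% of all genes in those fits, and to 0 when genes of any level were kept.

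Members with the kappaB consensus in a promoter window had a median arm difference of 1.20 (14 members). Those counted with a window and no consensus match had 0.74 (9 members, of which IL8 and ICAM1 hold the core). SOD2, whose windows have no match and whose arm difference was 0.49, is missing from that count and median. Over all tested genes with a window the medians were 0.089 with the consensus (1811 genes) and 0.062 without it (8580 genes). These are descriptions, and the ranges of the member groups overlapped, from -0.44 to 2.74 with the consensus and from 0.04 to 2.95 without. TNFAIP2, TRAF1, IL8, ICAM1 and PTGS2 without the consensus, and CXCL3 and CCL20 with it, passed the filter through the lentiviral arm alone. Such genes had to be higher in that arm, and the upper end of 2.95 is IL8, so the groups cannot be compared on this difference.

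Knockdown against its control addresses the effect of reducing NMR. Most of the members lay lower in the knockdown libraries than in their controls, but none passed the test. The median difference over the 28 was -0.39, with 22 below 0, beside a median of -0.0021 over all genes. It was -0.41 in KYSE70 and -0.39 in KYSE450, and for the 21 members at 1 FPKM or more in both arms it was -0.34. A total of 17 members were lower in both lines, where 25.9% of all genes were, and BIRC2 and ICAM1 were higher in both, where 27.1% of all genes were. Among the 17 are TNFAIP2, CXCL3, IL8 and CCL20, which passed the filter through the lentiviral arm with their highest value in a knockdown control. Their place there is a description. ICAM1 passed the filter through that arm as well. The smallest limma adjusted p of a member was 0.199, for NFKBIB. At an unadjusted p under 0.05 limma gave 15 of the 28 members, again with TNFAIP2, CXCL3, IL8 and CCL20 among them, and 1794 of the 14311 genes. Voom on the recovered reads called 4 genes, 0 of them members. This comparison uses the same knockdown control libraries as the arm comparison, so the members' differences in the pair of comparisons are not independent of each other. Without 1 of the KYSE70 lentiviral libraries 6 members were called, against 4.05% to 4.07% of all genes, and without 1 of the KYSE450 lentiviral libraries 15 were, against 33.8% of all genes. Those fits take the spread of the lone remaining pair from the overexpression arm.

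By role, the 4 tested chemokines had the lowest median, -1.02. Of these, IL8, CXCL3 and CCL20 passed the filter through the lentiviral arm, each with its highest value in a knockdown control. A high control thus helped them enter, so the place of this role is a description. Log2(FPKM + 1) differences between the knockdown and its control were -0.68 in KYSE70 and -1.62 in KYSE450 for IL8, with a fitted -1.15 (SE 0.25, limma adjusted p = 0.272). They were -0.12 and -2.31 for CCL20, -1.02 and -0.56 for CXCL1, and -1.05 and -0.72 for CXCL3. All of these are below 0 in both lines, with CCL20 close to 0 in KYSE70. Among the cytokines LIF differed by -1.49 and -0.78 (fitted -1.13, SE 0.21, limma adjusted p = 0.268). IL1A stood at 0.30 and -0.06, and IL1B at -0.42 and -0.04.

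The inhibitors had a median of -0.68. NFKBIB differed by -1.06 in KYSE70 and -0.84 in KYSE450 (fitted -0.95, SE 0.14). NFKBIZ differed by -0.85 and -0.63, and BCL3 by -0.68 and -0.69. NFKBIA stood at 0.06 and -0.12 and NFKBIE at -0.19 and 0.13, so the cytoplasmic inhibitors NFKBIA and NFKBIE had opposite signs in the lines. Of the subunits, whose median was -0.34, RELB differed by -0.90 and -0.56 and NFKB2 by -0.41 and -0.54. RELA was at -0.17 and -0.36, REL at -0.15 and -0.17, and NFKB1 at -0.77 and 0.08. The subunits thus lay below 0 in both lines except NFKB1 in KYSE450.

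Among the feedback and survival genes, TNFAIP2 differed by -1.15 and -0.86, TNFAIP3 by -1.09 and -0.16, BIRC3 by -0.71 and -0.64, and TNIP1 by -0.46 and -0.42. BIRC2 stood opposite its relative BIRC3, at 0.95 in KYSE70 and 0.31 in KYSE450 (fitted 0.63, SE 0.18, limma adjusted p = 0.321). IER3 (-0.09 and 0.23), SOD2 (0.02 and -0.29) and TRAF1 (-0.03 and 0.30) had opposite signs in the lines. PTGS2 also did, at 0.55 in KYSE70 and -1.03 in KYSE450. ICAM1 was at 0.24 and 0.43, and IRF1 at 0.17 and -0.06.

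Values of the KYSE70 knockdown library, with its mitochondrial share of 8.63%, stand beside these differences. Its change against the control ran with the GC content of genes (Spearman correlation -0.48 across 13914 genes, which are not independent replicates), where the other 3 pairs had 0.039 to 0.071. After removal of trends on GC content and length, the members had a median of -0.34, and the part of that library's composition in the members' values was not tested beyond this. In KYSE450, where the knockdown library had a mitochondrial share of 4.04%, the members' median was -0.39. What this means for the KYSE70 values was not tested.

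**Figure D4:**
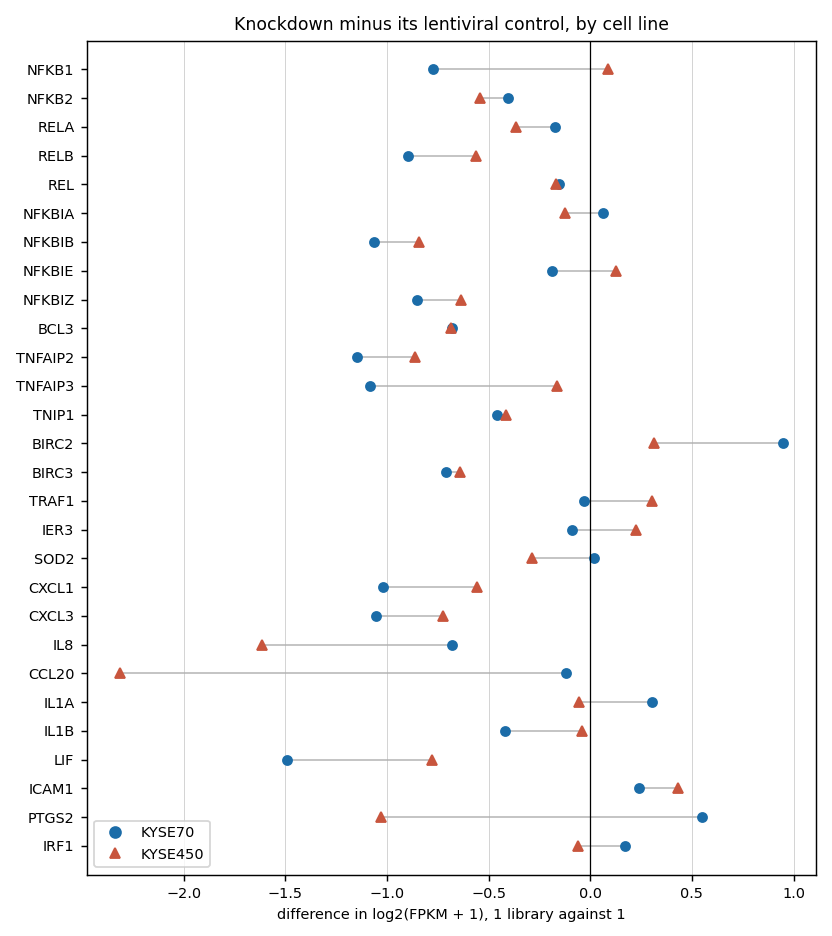
Difference in log2(FPKM + 1) between the knockdown library and its control for the 28 tested members, with circles for KYSE70 and triangles for KYSE450. Both symbols lie left of 0 for 17 members, as for LIF at -1.49 and -0.78, and right of 0 for BIRC2 and ICAM1. TNFAIP2, CXCL3, IL8 and CCL20 among the 17, and ICAM1, passed the filter through the lentiviral arm alone. None of the differences passed the test.

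Overexpression against its control addresses the effect of raising NMR. The members lay close to their controls: the fitted differences ran from -0.26 for LIF to 0.38 for TNFAIP3, with a median of 0.018 beside -0.010 over all genes. At an unadjusted p under 0.05 limma gave 0 members and 148 of all 14311 genes, and voom on the recovered reads gave 0 calls. RELB, TNFAIP3, BIRC2, IL8, IL1A and IRF1 were higher in both lines (6 of 28, where 23.0% of all genes were), and TNFAIP2 and LIF were lower in both (2 of 28, where 27.6% of all genes were). TNFAIP3 differed by 0.42 in KYSE70 and 0.34 in KYSE450 (SE of the fitted value 0.23), IL1A by 0.52 and 0.02, and CXCL1 by 0.21 and -0.48. With an SE of 0.13 to 0.45 among the members, small differences were not detectable with these libraries.

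Between the lines, the members at 1 FPKM or more in both gave IRF1 as higher in KYSE70 and REL, NFKBIB and BIRC2 as lower. IRF1 was higher by 0.89 (SE 0.24, limma adjusted p = 0.0110). REL differed by -0.77 (SE 0.21, limma adjusted p = 0.0132), NFKBIB by -0.93 (SE 0.32, limma adjusted p = 0.0340) and BIRC2 by -0.92 (SE 0.29, limma adjusted p = 0.0236). With knockdown the BIRC2 level was slightly higher in KYSE70 (a difference of 0.05), and in the other 3 groups it was lower there. NFKBIB and BIRC2 were not called when genes of any level were kept (adjusted p = 0.0750 and 0.0551), and with 1 library left out they were called in 4 and 3 of 8 fits. Exons of REL overlap those of AC010733.2 on the same strand, listed at up to 12.9 FPKM, and exons of IRF1 those of the antisense gene C5orf56 at up to 3.59 FPKM, so the split of reads is uncertain for both. The same holds for antisense partners of TNFAIP3 (at most 1.38 FPKM), LIF (at most 1.20 FPKM) and SOD2 (WTAP, at most 40.9 FPKM). IL1A, IL1B and TRAF1 passed the filter through 1 line and are described without a test. IL1A was at 10.8 ± 9.30 FPKM in KYSE70 against 0.0474 ± 0.0193 FPKM in KYSE450 (SD, n = 4 libraries each), and TRAF1 at 0.0878 ± 0.0340 FPKM in KYSE70 against 1.92 ± 0.323 FPKM in KYSE450.

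The KYSE70 libraries all lay above the KYSE450 libraries for IL1A, IL1B and IRF1, where 24.1% of all genes were so placed, and all below them for REL, NFKBIB and TRAF1, where 24.5% of all genes were. Of these, IL1A, IL1B and TRAF1 passed the filter through a single line, so their place is a description. The remaining tested members included those whose order changed with the arm. For IL8 the KYSE70 library differed from the KYSE450 library by -4.26 with knockdown and -5.20 with its control, and by 0.43 with overexpression and 0.08 with its control. TNFAIP3 differed by -2.28 with knockdown and -1.36 with its control, and by 0.62 with overexpression and 0.53 with its control. The sign of the median line difference over the members, -0.16, changed to 0.13 without the KYSE450 knockdown control library. With the group as a block 13 of the 28 members were called, against 54.0% of all genes.

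Of 93 other gene symbols of the pathway, listed as receptors and ligands, adaptors, kinases and further targets, 92 were in the tables and 62 were tested. FAM105B and OTULIN, both on the list, are symbols of the same gene. Between the arms 2 were called higher and 1 lower, a share near that of all genes (3.0% higher and 1.01% lower), with a median of 0.26 over the 62. MAP3K8, a kinase that links the pathway to MAP kinases, was higher in the lentiviral arm by 1.12 (SE 0.19, limma adjusted p = 0.0358), and BCL10, an adaptor of the CARD complex, by 0.85 (SE 0.18, limma adjusted p = 0.0496). RIPK1, the kinase adaptor of the tumor necrosis factor receptor, was lower (-0.70, SE 0.14, limma adjusted p = 0.0496). Of the 8 kinases tested, MAP3K8 was the only one called between the arms.

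The difference of the arms between the lines was called for 6 of the 62, all lower, against 1.54% of all genes called lower: LCN2, ZC3H12A, SAA1, C3, TNFRSF9 and TNFRSF12A. LCN2, SAA1 and TNFRSF9 averaged under 1 FPKM in the plasmid arm and passed the filter through the lentiviral arm, so their values are given without a test. LCN2, an iron-binding acute-phase protein, had 1.07 and 149 FPKM with knockdown, 0.665 and 278 FPKM with the knockdown control, 0.451 and 1.71 FPKM with overexpression, and 0.516 and 0.899 FPKM with the overexpression control. As with IL8, the KYSE450 lentiviral libraries stood far above the rest. ZC3H12A, an RNase that degrades inflammatory transcripts, had 33.6 and 41.8 FPKM in the KYSE450 lentiviral libraries against 5.58 to 7.49 FPKM in the other 6 (difference -2.62, SE 0.22, limma adjusted p = 0.00484). SAA1, an acute-phase protein, had 5.75 and 6.45 FPKM in the KYSE450 lentiviral libraries and at most 1.70 FPKM in the other 6.

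Knockdown and overexpression gave 0 calls among the 62. By value, TNFSF10, a death ligand, differed by 1.13 with knockdown (SE 0.19, limma adjusted p = 0.239) and by 0.62 with overexpression (SE 0.19, limma adjusted p = 0.9998). Between the lines 21 were higher and 14 lower in KYSE70, where 24.7% and 25.6% of all genes were. Of these, CFLAR, IL11, MYD88, PLAU and TRAF5 averaged under 1 FPKM in 1 line and passed the filter through the other. Among the 54 genes at 1 FPKM or more in both lines, 20 were called higher and 10 lower. MYD88, the adaptor of IL-1 and Toll-like receptors, had 0.105 to 0.270 FPKM in KYSE70 against 9.29 to 14.4 FPKM in KYSE450. TRAF5, an adaptor, and the caspase regulator CFLAR were also low in KYSE70, at most 0.178 FPKM, and these 3 genes passed the filter through KYSE450. IL18 (1.52), a cytokine of the IL-1 family, BCL2L1 (1.21) and XIAP (0.94) were higher in KYSE70.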

How the data were processed

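Total RNA of the 8 libraries was sequenced on Illumina libraries, per the labels. The deposited files hold 1 FPKM value per gene and library; the unit is inferred from the values, as no header states it. TopHat2 2.0.9, HTSeq 0.6.1 and the build hg19 appear in the submitters' processing notes without their roles. No strand setting was given in the sources used here. Whole reads were recovered from the FPKM steps in 100% of 30872 genes above 0 in 2 or more libraries (tolerance 0.02 reads). They cover counting error only.

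The 14311 of 48162 genes that averaged 1 FPKM or more were fitted as log2(FPKM + 1) with limma 3.58.1 (trend) in R 4.3.3, with Benjamini-Hochberg adjustment over all genes and a threshold of 0.05. A fold change on this scale understates that of low genes. Knockdown, overexpression and the arm difference between lines came from 1 model with a term per pair of treated library and control. The arms were compared with cell line and group in the model, and the lines without a block. Replicate 1 is KYSE70 and replicate 2 is KYSE450, so libraries are paired by line. The line difference correlated at 0.805 to 0.971 between groups, and libraries of a line at 0.949 to 0.996, against at most 0.847 between lines. The fits were also run on simulated data, whose outcome is not given here. For the comparisons of lines, of arms and of arms between lines, the simulated background held no line or arm difference. Those runs therefore do not cover the differences seen in these libraries.

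The members and lists were chosen with earlier results of these data known. All members are named. Of the other pathway genes, up to 3 called genes per direction with the same sign in both lines were named by smallest p, or up to 2 by value where none was called. Some genes that this takes are given as counts only, and a gene of the leukocyte marker list is not reported here. Gene positions and transcripts came from GENCODE release 29 and promoters from RefSeq, both on GRCh38; file coordinates were not used. Alternatives changed the pseudocount (0.1), filter (none, or at least 5 FPKM), scaling, block and test (voom on recovered reads), removed GC and length trends, or left out each library.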

Additional observations from a re-analysis of the deposited data

Results flagged for a closer look

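In 7 of 112 sets of 4 libraries (a line or an arm, per tested member), 1 library lay far from the other 3; chance gives about 1 in 20 such sets. The KYSE450 knockdown control lay highest of the KYSE450 libraries for NFKBIB (64.0 FPKM) and CCL20 (13.3 FPKM), and highest of the lentiviral libraries for CCL20. The KYSE70 knockdown control lay highest of the KYSE70 libraries for TNFAIP2 (2.47 FPKM), CXCL1 (31.3 FPKM) and LIF (10.5 FPKM). The KYSE70 overexpression library lay highest of the plasmid libraries for IL8 (0.666 FPKM, 20 reads).

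The arm difference differed between KYSE70 and KYSE450 for 15 members by the limma test, of which IL8, CXCL3, TNFAIP2, IL1A and IL1B passed the filter on low values through 1 arm or 1 line alone. It was lower in KYSE70 for IL8 (-4.98), TNFAIP3 (-2.39), CXCL3 (-2.20), CXCL1 (-1.79), BIRC3 (-1.76), BCL3 (-1.75) and RELB (-1.40). The same held for NFKBIZ (-1.35), IER3 (-1.34), TNFAIP2 (-1.32), TNIP1 (-1.29) and NFKBIB (-1.24). It was higher in KYSE70 for IL1A (2.35), IL1B (1.66) and BIRC2 (1.30).

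PTGS2 differed by 0.55 between knockdown and control in KYSE70 and by -1.03 in KYSE450, opposite signs with 1 pair of libraries each; the difference between the lines was not tested.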

How the results depend on the processing

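Of the values recomputed under the alternatives, only the median line difference over the members changed its sign. Knockdown gave 3 calls among all genes with a pseudocount of 0.1, 4 with voom on recovered reads and 37 with the lentiviral libraries alone and the replicate block, against 0 under the other settings with all libraries, and none was a member. The members' median knockdown difference was -0.43 with a pseudocount of 0.1, -0.34 with a filter of 5 FPKM, -0.46 with voom and -0.34 with GC and length trends removed. Overexpression gave 12 calls, 0 of them members, with the plasmid libraries alone and the replicate block. The line comparison gave 13 member calls with group as a block. The arm comparison gave 0 calls, 0 of them members, with no filter, with no replicate block, or with the controls only, and 881 calls with voom (11 members), against 575. The arm difference between lines gave 0 calls with no filter and 511 with a filter of 5 FPKM, against 912, and its member median was -0.94 both with a pseudocount of 0.1 and with voom. The replicate block changed no other call.

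Leaving out 1 library at a time gave 36 to 4833 knockdown calls (members 0 to 15, median -0.41 to -0.39) and 0 to 12 overexpression calls (members 0, median 0.0025 to 0.041). It gave 6266 to 7722 line calls (members 5 to 9, median -0.50 to 0.13). It gave 0 to 2463 arm calls (members 0 to 9, median 0.90 to 1.20), and 330 to 6101 calls on the arm difference between lines (members 8 to 21, median -0.85 to -0.61). The causes were not tested. Each treated-against-control value rests on 1 library per side and line, and members under 1 FPKM on few reads.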
